A study of Mus musculus with 8 samples.

Results

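Ptgs1, Ptgs2, Ptges, Ptgis, Pla2g4a and Ch25h encode enzymes that make prostaglandins and an oxysterol. They were chosen by name, as the 6 rows of a count table whose identifiers map to these symbols, out of 45706 gene rows. RNA attached to chromatin, the fraction that holds transcripts still being made or just released, was read in primary fibroblasts of C57BL/6 mouse embryos. Cells of wild type (WT) were set beside crel-/-rela-/- cells (KO), which lack cRel and RelA, subunits of the transcription factor NF-kB. All cells were held overnight in 0.5% serum, and tumour necrosis factor (TNF), a cytokine that activates NF-kB, was added at 10 ng/ml. There were 8 libraries, 1 for each genotype at 0 (no TNF), 15, 45 and 60 min, and the number of embryos behind each was not given in the sources used here.

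Prostaglandins are lipid signals cut from membrane lipid in steps. A phospholipase A2 such as the product of Pla2g4a frees arachidonic acid, the cyclooxygenases of Ptgs1 and Ptgs2 turn it into the precursor PGH2, and terminal synthases make the individual hormones from PGH2: the product of Ptges makes PGE2 and that of Ptgis makes prostacyclin. Ptgs2 is a textbook immediate early and inflammatory gene of fibroblasts, and PGE2 is a main prostaglandin of inflamed connective tissue. Ch25h makes 25-hydroxycholesterol, an oxysterol that holds back cholesterol synthesis and limits the entry of enveloped viruses, and it is best known as an interferon and Toll-like receptor target in macrophages.

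Libraries held 12359817 to 15607331 counts, of which 58.92% to 70.62% fell on 3 gene models, 2 of them Gm26917 and Gm42418 on chromosome 17. The other rows shared 3948194 to 5644974 counts per library. Levels are given as CPM, a count relative to the size of its library after TMM scaling, which corrects for such uneven composition, and 1 count was worth 0.0598 to 0.0882 CPM. The summed level of 10 fibroblast markers was 9020 to 11500 CPM in WT and 9900 to 13300 CPM in KO libraries. Single markers in that sum differed, such as Pdgfra at 78 to 123 CPM in WT and 46 to 82 CPM in KO. The levels of 10 macrophage markers summed to 54.8 to 74.5 CPM in WT and 6.11 to 8.12 CPM in KO, with none at 0 in all 8 libraries. Most of the KO sum was Cd68, at 5.3 to 6.8 CPM in KO against 5.4 to 8.7 CPM in WT. In KO, Fcgr1 was at 0 in 4 libraries and Adgre1 in 3. The KO 0 min library stood apart: its 8 cartilage markers summed to 456 CPM, against 36.6 to 68.8 CPM in the other KO libraries and 21.6 to 25.4 CPM in WT. Its 7 epithelial markers summed to 14 CPM, against 2.47 to 4.29 CPM in later KO and 1.07 to 1.29 CPM in WT libraries. The levels of 8 endothelial markers summed to 5.59 to 8.02 CPM in WT and 10.2 to 15.7 CPM in KO libraries. At 0, 15, 45 and 60 min, Rela had 324, 406, 704 and 589 counts for WT against 306, 241, 291 and 324 for KO. Rel, which encodes cRel, had 151, 173, 805 and 506 for WT against 478, 308, 538 and 633 for KO, and was thus higher in KO at 0, 15 and 60 min. The deleted part of either gene was not given, so neither row checks the labels.

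With 1 library per group, a single time was described by the ratio of 2 libraries. A ratio was singled out when it was at least 2-fold, its 95% interval (Clopper-Pearson, counting error only) excluded equality, and the higher library had at least 20 counts. For tests, the 45 and 60 min libraries of a genotype stood in for replicates. The late response is their mean against 0 min, as a log2 fold change with its standard error (SE) and a p-value from edgeR's quasi-likelihood test, adjusted by Benjamini-Hochberg over 15049 genes, with a threshold of 0.05. Such p-values measure only the spread between these libraries, which edgeR draws for each gene toward a trend over all genes. No library was left without TNF at later times, so TNF, time and handling cannot be told apart. All 6 genes entered the tests, each with at least 13 counts in every library.

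Ptges was the only one of the 6 that passed the test after TNF in WT cells, while Ptgs2 was highest at 15 min in both genotypes and Ch25h was lower in KO at every time. In the WT late response 1 of the 6 genes rose, beside 4.17% of all genes tested that rose, and 0 fell, beside 1.31%. In the KO late response 0 of the 6 rose and 0 fell by edgeR, beside 1.32% and 0.518% of all genes. Of these 6, 1 (Pla2g4a) had an unadjusted edgeR p under 0.05 in KO, beside 2667 of all 15049 genes, a similar share. DESeq2 and limma-voom called 0 of the 6. The median log2 late response of the 6 was 0.23 in WT, against -0.0039 for all genes, and -0.04 in KO, against -0.0054.

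**Figure D1:**
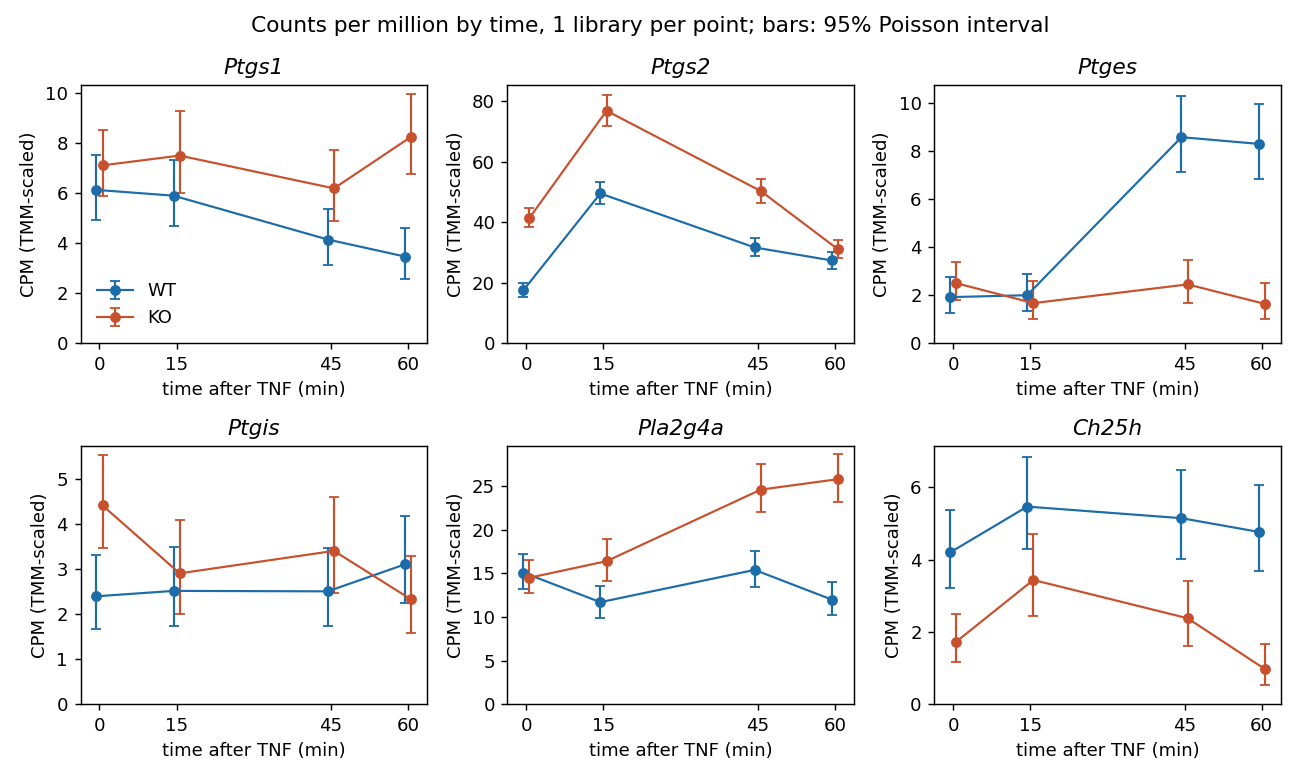
TMM-scaled CPM of the 6 enzyme genes (vertical axes, each from 0) against minutes after TNF (horizontal axes), with WT in blue and KO in red. Each point is 1 library and each bar its 95% Poisson interval, for counting error only; Ptges separates at 45 and 60 min, where WT reads 8.59 and 8.31 CPM and KO 2.46 and 1.65 CPM.

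Ptges, which encodes the inducible microsomal PGE synthase, lies on chromosome 2 (30889471 to 30929863, minus strand, mm10) and was counted over 6 exon segments of 3931 bases. Its level in WT was 1.93 CPM at 0 min, 2.01 CPM at 15 min, 8.59 CPM at 45 min and 8.31 CPM at 60 min, from 29, 28, 120 and 115 counts. In KO it was 2.51, 1.68, 2.46 and 1.65 CPM at the same times, from 42, 19, 31 and 22 counts. Both late WT libraries stood above all 6 others, and the 0 and 15 min libraries of the genotypes overlapped.

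Between 15 and 45 min in WT the Ptges ratio was 4.27-fold (log2 2.09, interval 1.49 to 2.74), and between 45 and 60 min it was 0.967-fold (log2 -0.05, interval -0.43 to 0.33). The level thus stepped up once and was held within counting error over the last interval. The WT late response of Ptges was 2.12 ± 0.35 (SE; edgeR adjusted p = 0.00324), and that in KO was -0.29 ± 0.36 (adjusted p = 0.721). The direct test of the difference, WT minus KO response, gave 2.42 ± 0.50 with an unadjusted p of 0.000392 and an adjusted p of 0.0623, above the threshold of 0.05. That difference did not pass over all genes, and its p ranked 94 among them. The adjusted p was 0.0188 with total-count scaling, 0.0153 with 0 and 15 min together as baseline and 0.583 with DESeq2. Against 15 min alone the difference was 1.78 and did not pass. Without the WT 45 or WT 60 min library the difference was 2.37 or 2.44. These fits set 1 late WT library against 1 at 0 min. The gene's own spread then came from the KO pair alone, so they lend the difference no support.

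The promoter of Ptges is shown because it belongs to the gene of the 6 that rose. The window runs from 250 bases before to 50 bases after the RefSeq start site, on GRCm38.p6, minus strand, chr2:30903248-30903547.
Ptges promoter: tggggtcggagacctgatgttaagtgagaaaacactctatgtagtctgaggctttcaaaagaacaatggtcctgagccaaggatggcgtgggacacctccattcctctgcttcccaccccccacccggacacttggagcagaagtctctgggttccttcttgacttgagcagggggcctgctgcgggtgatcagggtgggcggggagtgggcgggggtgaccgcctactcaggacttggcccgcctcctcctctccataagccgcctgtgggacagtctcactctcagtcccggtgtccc
The annotated row of Ptges in the count table begins 26566 bases upstream of this start, so a count cannot be assigned to transcripts from this window. The window held 10 CG steps and was 60% G or C. On either strand it held none of 6 motifs searched: the NF-kB consensus (in 4.51% of 32851 such windows), the AP-1 motif TGANTCA (7.81%), the cyclic AMP response element core TGACG (20.8%), the E-box CACGTG (7.15%), the TATA box TATAAA (13.6%) and the CArG box (1.63%). That says only that these letters are not in this window.

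Ptgs2, the inducible cyclooxygenase, had the highest level per kilobase of the 6 in every library. It lies on chromosome 1 (150100031 to 150108227, plus strand, mm10), with 11 exon segments of 4580 bases. WT libraries read 17.5 CPM at 0 min, 49.5 CPM at 15 min, 31.7 CPM at 45 min and 27.4 CPM at 60 min. KO libraries read 41.4, 76.8, 50.3 and 31.1 CPM. In each genotype the 15 min library was the highest, and at each time the KO library was above the WT library.

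At 15 min against 0 min, Ptgs2 was 2.82-fold higher in WT (log2 1.5, interval 1.29 to 1.71) and 1.85-fold higher in KO (log2 0.89, interval 0.74 to 1.04). From 15 to 45 min it was lower by a similar ratio in both, 0.641-fold in WT (log2 interval -0.82 to -0.47) and 0.656-fold in KO (-0.76 to -0.46). From 45 to 60 min the ratio was 0.863 in WT and 0.618 in KO. At 60 min the WT level was 1.56-fold its 0 min level, whereas the KO level was 0.752-fold its own. The KO ratios to 0 min rest on the KO 0 min library, whose markers stood apart, and their part was not tested. Scaled by total counts, the log2 ratio of 15 to 0 min was 1.16 in WT and 0.545 in KO, each below its interval given above. The late response of Ptgs2 was 0.75 ± 0.26 in WT (edgeR adjusted p = 0.128) and -0.03 ± 0.24 in KO (adjusted p = 0.973), and neither passed. The difference of 0.78 ± 0.35 did not pass either (adjusted p = 0.639). The WT response depends on the baseline: against 15 min it was -0.74. The WT response was 0.847 without WT 60 min, where the gene's own spread came from the KO pair alone. It was 0.754 without KO 45 min and 0.755 without KO 60 min, where that spread came from the WT pair alone.

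The time course of Ptgs2 stood beside those of 3 reference genes. Fos, an immediate early gene, showed 218, 448, 73 and 61 counts for WT against 300, 866, 124 and 64 for KO, also highest at 15 min in both genotypes. Nfkbia, which encodes the NF-kB inhibitor IkBa and is itself an NF-kB target, showed 204, 1916, 3264 and 2527 counts for WT against 178, 121, 169 and 135 for KO. Tnfaip3, another feedback inhibitor of NF-kB, showed 109, 1086, 5115 and 3368 counts for WT against 22 to 51 for KO. Ptges followed neither shape at 15 min, where its WT ratio to 0 min was 1.04.

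The Ptgs2 promoter is shown because the gene was highest at 15 min with and without RelA and cRel; capitals mark motif matches. The window is chr1:150099781-150100080, GRCm38.p6, plus strand.
Ptgs2 promoter: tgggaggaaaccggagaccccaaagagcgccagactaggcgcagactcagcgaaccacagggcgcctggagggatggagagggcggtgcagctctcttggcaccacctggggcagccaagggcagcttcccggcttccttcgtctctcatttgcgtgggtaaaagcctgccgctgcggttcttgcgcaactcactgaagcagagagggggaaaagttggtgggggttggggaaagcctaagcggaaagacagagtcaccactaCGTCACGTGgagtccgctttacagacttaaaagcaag
The capitals hold the cyclic AMP response element core TGACG on the minus strand, 13 to 17 bases after the annotated start base, which overlaps an E-box CACGTG at 16 to 21 bases. No match to the NF-kB consensus, AP-1, TATA or CArG motif lay in these 300 bases. The antisense row Ptgs2os begins 68 bases upstream on the other strand and had 9 to 18 counts per library, and Ptgs2os2, 50816 bases away, had 2 to 7. Ptgs2os did not pass in any of the 4 tests (late WT response 1.06 ± 0.55, adjusted p = 0.327). The strand setting of the counting was not given, but neither row overlaps Ptgs2.

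Ptgs1, the constitutive cyclooxygenase of chromosome 2 (36230426 to 36252272, plus strand), was lowest in the late WT libraries. Its levels were 6.13, 5.90, 4.15 and 3.47 CPM in WT at 0, 15, 45 and 60 min, and 7.11, 7.50, 6.19 and 8.25 CPM in KO. Every KO library stood above the WT library of its time. The late WT response was -0.68 ± 0.29 (edgeR adjusted p = 0.21), that in KO 0.02 ± 0.27 (adjusted p = 0.978) and the difference -0.71 ± 0.39 (adjusted p = 0.77), none past the test.

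Pla2g4a, cytosolic phospholipase A2 alpha, lies 138741 bases from Ptgs2 on chromosome 1 (149829618 to 149961290, minus strand). Its WT levels were 15.1, 11.7, 15.4 and 12.0 CPM. The 15 and 60 min WT libraries were 0.771-fold and 0.793-fold the 0 min library (log2 intervals -0.676 to -0.0788 and -0.632 to -0.0395). Its KO levels were 14.5, 16.4, 24.6 and 25.8 CPM, with both late libraries above all WT libraries. The late KO response was 0.80 ± 0.21 with an unadjusted p of 0.00253 and an edgeR adjusted p of 0.0759, so it missed the threshold. In WT it was -0.14 ± 0.21 (adjusted p = 0.776), and the difference was -0.94 ± 0.30 (adjusted p = 0.329). Without the WT 45 or WT 60 min library, with the gene's own spread taken from the KO pair alone, the late KO response was 0.8 or 0.786. Against KO 15 min in place of the KO 0 min library, it was 0.62 (adjusted p = 0.213).

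Ptgis, prostacyclin synthase (chromosome 2, 167191805 to 167240604, minus strand), had 31 to 74 counts per library. WT levels were 2.40, 2.52, 2.51 and 3.11 CPM and KO levels 4.42, 2.91, 3.41 and 2.33 CPM. The highest value belonged to the KO 0 min library, which stood apart in its markers, and their part in this value was not tested. The KO library at 60 min was 0.526-fold that at 0 min (log2 -0.93, interval -1.58 to -0.30), and the late KO response of -0.63 ± 0.34 did not pass (edgeR adjusted p = 0.358). Against 15 min it was -0.02. The WT response was 0.23 ± 0.38 (adjusted p = 0.806).

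Ch25h is a gene of 1 exon on chromosome 19 (34473786 to 34475135, minus strand). WT levels were 4.20, 5.47, 5.15 and 4.77 CPM, from 63, 76, 72 and 66 counts. KO levels were 1.73, 3.44, 2.38 and 0.975 CPM, from 29, 39, 30 and 13 counts. The 4 KO libraries were all below the 4 WT libraries. Within KO, the 15 min library was 1.99-fold the 0 min library (log2 0.99, interval 0.26 to 1.73), just under the 2-fold rule, and the 60 min library was 0.409-fold the 45 min library (log2 -1.29, interval -2.35 to -0.31). Late responses were 0.24 ± 0.37 in WT (edgeR adjusted p = 0.787) and -0.06 ± 0.47 in KO (adjusted p = 0.966).

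The Ch25h promoter is shown because the gene differed between genotypes before TNF as well; capitals mark motif matches. The window is chr19:34475099-34475398, GRCm38.p6, minus strand.
Ch25h promoter: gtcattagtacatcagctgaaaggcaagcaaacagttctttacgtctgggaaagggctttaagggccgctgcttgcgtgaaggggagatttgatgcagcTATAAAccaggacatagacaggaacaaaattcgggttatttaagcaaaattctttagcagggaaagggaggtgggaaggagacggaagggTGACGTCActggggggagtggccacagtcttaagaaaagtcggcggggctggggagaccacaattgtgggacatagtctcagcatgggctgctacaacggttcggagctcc
The first capitals are a TATA box 151 to 146 bases before the annotated start base, and the second a pair of overlapping TGACG cores, 1 on each strand, 61 to 54 bases before it. No match to the NF-kB consensus, AP-1, E-box or CArG motif was in the window. A predicted gene on the other strand, Gm26902, overlaps Ch25h and had 5 to 17 counts per library. Because the strand setting was not given, reads of this pair cannot be told apart, although the Gm26902 counts were lower than those of Ch25h in every library. The lysosomal lipase gene Lipa, 17183 bases away, was also lower in KO (-0.48 ± 0.11, adjusted p = 0.0177). A window was also looked up for Ptgs1 and Pla2g4a: that of Ptgs1 held none of the 6 motifs, and of the 2 windows of Pla2g4a only the one 38851 bases inside the row held a TATA box.

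**Figure D2:**
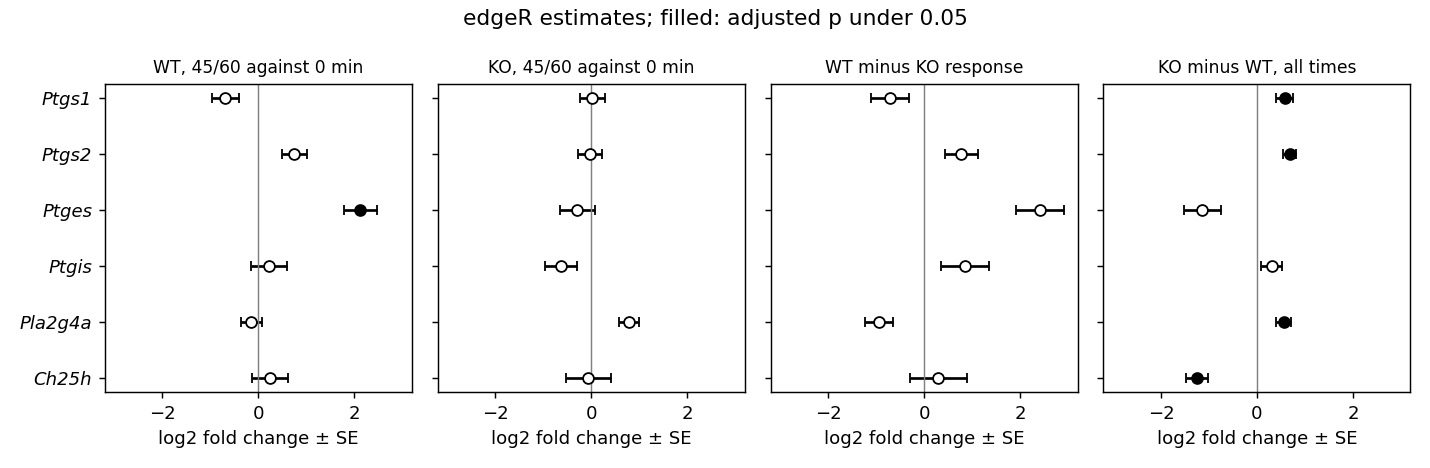
Log2 fold change with its SE (horizontal axes) for each of the 6 genes (vertical axis) in the 4 edgeR comparisons: WT late response, KO late response, their difference and KO minus WT over all times. Filled points have an adjusted p under 0.05; these are Ptges in the WT response and Ptgs1, Ptgs2, Pla2g4a and Ch25h between genotypes.

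The difference between the late responses was tested for all 6. By edgeR 0 of the 6 were higher in WT than in KO and 0 were lower, beside 0.492% and 0.00664% of all genes. Unadjusted edgeR p was under 0.05 for 3 of them (Ptges, Pla2g4a and Ptgs2), beside 1148 of all 15049 genes. DESeq2 and limma-voom called 0 of the 6. The largest adjusted p was that of Ch25h, with a difference of 0.30 ± 0.60 (0.985).

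At 15 min against 0 min in WT, 1 of the 6 genes passed the 2-fold rule (Ptgs2), beside 2.05% of all genes tested. At 45 min 1 passed (Ptges, 4.45-fold, log2 interval 1.56 to 2.79), beside 6.98%. At 60 min 1 passed (Ptges, 4.30-fold, 1.51 to 2.75), beside 8.36%. In KO 0 of the 6 passed at any time, beside 1.73% of genes at 15 min, 5.36% at 45 min and 6.24% at 60 min.

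Levels between the genotypes were compared over all 4 times with time as a block, which tests a constant offset and not a response. Ptgs2, Ptgs1 and Pla2g4a were higher in KO, and Ch25h was lower. The count of 3 of 6 higher stands beside 6.81% of all genes, and that of 1 of 6 lower beside 9.44%. The median of the 6 was 0.43, against 0.0123 for all genes. Ptgs2 differed by 0.68 ± 0.14 (edgeR adjusted p = 0.00875) and Ch25h by -1.25 ± 0.24 (adjusted p = 0.00552). Pla2g4a differed by 0.56 ± 0.16 (adjusted p = 0.0406) and Ptgs1 by 0.57 ± 0.17 (adjusted p = 0.0494), both close to the threshold. Ptges, at -1.14 ± 0.38, did not pass (adjusted p = 0.0688), nor did Ptgis at 0.31 ± 0.22 (adjusted p = 0.397).

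**Figure D3:**
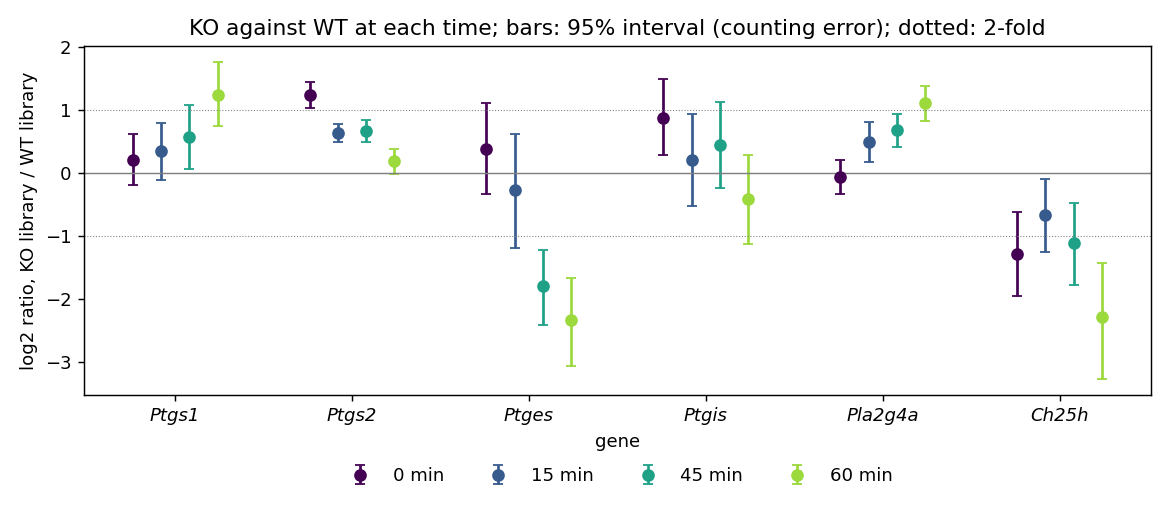
Log2 ratio of the KO to the WT library of the same time (vertical axis) for each gene (horizontal axis), with times as colours and 95% intervals for counting error; dotted lines mark 2-fold. Ch25h was below 0 at all 4 times, Ptges read -1.80 and -2.33 at 45 and 60 min with intervals that include 0 at 0 and 15 min, and Ptgs2 ran from 1.24 at 0 min to 0.19 at 60 min.

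The offset was not the same at each time. Before TNF, Ptgs2 was 2.36-fold higher in KO (log2 1.24, interval 1.03 to 1.45) and Ch25h was lower (log2 -1.28, -1.96 to -0.62), which makes 2 of 6 past the 2-fold rule beside 5.28% of all genes. Both 0 min ratios rest on the KO 0 min library, whose cartilage and epithelial markers stood apart, and the part of these was not tested. At 15 min 0 of 6 passed, beside 5.28%, with Ptgs2 1.55-fold higher. At 45 min Ptges (log2 -1.80, -2.42 to -1.22) and Ch25h (-1.11, -1.78 to -0.48) passed, 2 of 6 beside 8.33%. At 60 min 4 of 6 passed beside 8.13%: Ptgs1 (2.38-fold), Pla2g4a (2.15-fold), Ptges (log2 -2.33) and Ch25h (log2 -2.29). By then Ptgs2 was 1.14-fold, with a log2 interval from -0.02 to 0.39 that includes equality.

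Without the KO 0 min library, the genotype value was 0.50 for Ptgs2 (adjusted p = 0.0144), -1.23 for Ch25h (0.0125), 0.77 for Pla2g4a (0.00387) and 0.71 for Ptgs1 (0.0331), and Ptges passed at -1.64 (0.00538). At 0 and 15 min alone, Ptges was 0.10. The Ptgs1 call was lost without the 15, 45 or 60 min library of either genotype (adjusted p 0.0771, 0.146 and 0.166 without the WT library, 0.0774, 0.148 and 0.169 without the KO library), and so was that of Pla2g4a (0.0891, 0.163 and 0.148, then 0.0885, 0.161 and 0.147). With time as a block, leaving out either library of a time removes that time from the genotype comparison. The WT and KO omissions of a time are thus nearly the same check. Without the time block, Ptgs2 had an adjusted p of 0.279 and Ch25h of 0.034. Macrophage markers moved with these genotype comparisons: 8 of the 9 tested were lower in KO, beside 9.44% of all genes, and Cd68 was not called. The lower markers included Csf1r (11.5 to 17.8 CPM in WT, 0.238 to 0.777 CPM in KO) and Lyz2 (8.23 to 15.2 CPM in WT, 0 to 0.418 CPM in KO). Their part in the level of Ch25h was not tested, and in bulk RNA fewer cells of a type and less RNA per cell cannot be told apart.

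Per kilobase of exon, the order of the 6 differed by genotype. The mean over 4 times in WT was 6.88 CPM per kb for Ptgs2, 3.63 for Ch25h, 2.12 for Pla2g4a, 1.33 for Ptges, 1.26 for Ptgs1 and 1.03 for Ptgis. In KO it was 10.9 for Ptgs2, 3.18 for Pla2g4a, 1.87 for Ptgs1, 1.58 for Ch25h, 1.27 for Ptgis and 0.528 for Ptges. Ptges, Ptgs1 and Ptgis overlapped in WT, where they ran from 0.491 to 2.18, from 0.893 to 1.58 and from 0.934 to 1.21 CPM per kb. Across the WT libraries Ptges also overlapped Pla2g4a (from 1.82), and Ptgs2 (from 3.82) overlapped Ch25h (up to 4.05). In KO, Ptgs1, Ch25h and Ptgis overlapped, while Ptges, at 0.42 to 0.639, was below each Ptgis library. There Ch25h (up to 2.55) also overlapped Pla2g4a (from 2.27). Among all tested genes, the mean level of Ptgs2 stood at percentile 86.9, Pla2g4a at 51.4, Ch25h at 50.8, Ptgs1 at 36.5, Ptgis at 29.1 and Ptges at 24.6.

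Other genes of the pathways were counted from lists. Of 12 prostanoid synthesis genes listed 11 were tested; Ptges alone passed in the WT late response, beside 4.17% of all genes that rose. Between genotypes 2 of the 11 were higher in KO (Ptgs1 and Ptgs2), beside 6.81% of all genes, and 2 were lower, beside 9.44%. The lower genes were Hpgds, hematopoietic PGD synthase (29, 20, 33 and 29 counts in WT, 0, 3, 1 and 0 in KO; adjusted p = 0.000638), and Tbxas1, thromboxane synthase (19 to 29 counts in WT, 2 to 9 in KO; adjusted p = 0.00228). Both are known from blood cells and macrophages, whose markers were lower in KO as given above; their part was not tested. The constitutive synthase genes Ptges2 (38 to 134 counts) and Ptges3 (72 to 122 counts) passed in no comparison.

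Of 14 phospholipases A2 listed 7 were tested. Only Pla2g4a passed, and only between genotypes. Beside the genotype calls in this list and those that follow, 6.81% of all genes were higher in KO and 9.44% lower. Among 6 genes of prostanoid breakdown and transport, 5 of them tested, Slco2a1, the prostaglandin uptake carrier, was higher in KO (112 to 172 counts in WT, 182 to 246 in KO; 0.69 ± 0.14, adjusted p = 0.00763). Of 9 prostanoid receptors, 5 of them tested, Tbxa2r, the thromboxane receptor, was lower in KO (72 to 124 counts in WT, 13 to 45 in KO; -1.5 ± 0.22, adjusted p = 0.00115). The PGE2 receptor genes Ptger1 (41 to 72 counts) and Ptger4 (34 to 83 counts) did not pass. Of 9 lipoxygenase branch genes only Aloxe3 and Lta4h could be tested, and neither passed. The list medians between genotypes were 0.29 for synthesis, 0.11 for phospholipases, -0.16 for breakdown and transport and -0.54 for receptors, against 0.0123 for all genes.

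Of 15 oxysterol genes listed 12 were tested, of which 4 were lower in KO, beside 9.44% of all genes, and 1 was higher, beside 6.81%, with a median of -0.24. Beside Ch25h the lower genes were Cyp27a1, sterol 27-hydroxylase (20 to 30 counts in WT, 2 to 20 in KO; -1.73 ± 0.39, adjusted p = 0.0132), Nr1h3, the oxysterol receptor LXR alpha (10 to 23 counts in WT, 2 to 5 in KO; -1.99 ± 0.40, adjusted p = 0.00807), and Gpr183, receptor of an oxysterol made from that of Ch25h (6 to 10 counts in WT, 0 to 2 in KO; adjusted p = 0.0155). The last 3 lost their calls without the WT 45 min library (adjusted p 0.0507, 0.0559 and 0.0509) or the KO 45 min library (0.0528, 0.0551 and 0.0518). Either omission removes the 45 min pair from that comparison, so both make nearly the same check. Cyp27a1, Nr1h3 and Gpr183 are also expressed by macrophages, and the part of those cells was not tested. Insig1, which holds back cholesterol synthesis when oxysterols bind it, was higher in KO (196 to 410 counts in WT, 439 to 621 in KO; 0.85 ± 0.12, adjusted p = 0.000881). It also rose in the WT late response (1.07 ± 0.22, adjusted p = 0.0131), but not against 15 min (0.47, adjusted p = 0.265), with total counts (0.86, adjusted p = 0.183) or with no filter (adjusted p = 0.0908). Its genotype call was lost without the time block (adjusted p = 0.0737). In the KO late response the lowest adjusted p of a list gene was 0.0607, for Cyp27a1 (-2.58 ± 0.64), and in the difference it was that of Ptges, so no list gene passed either.

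**Figure D4:**
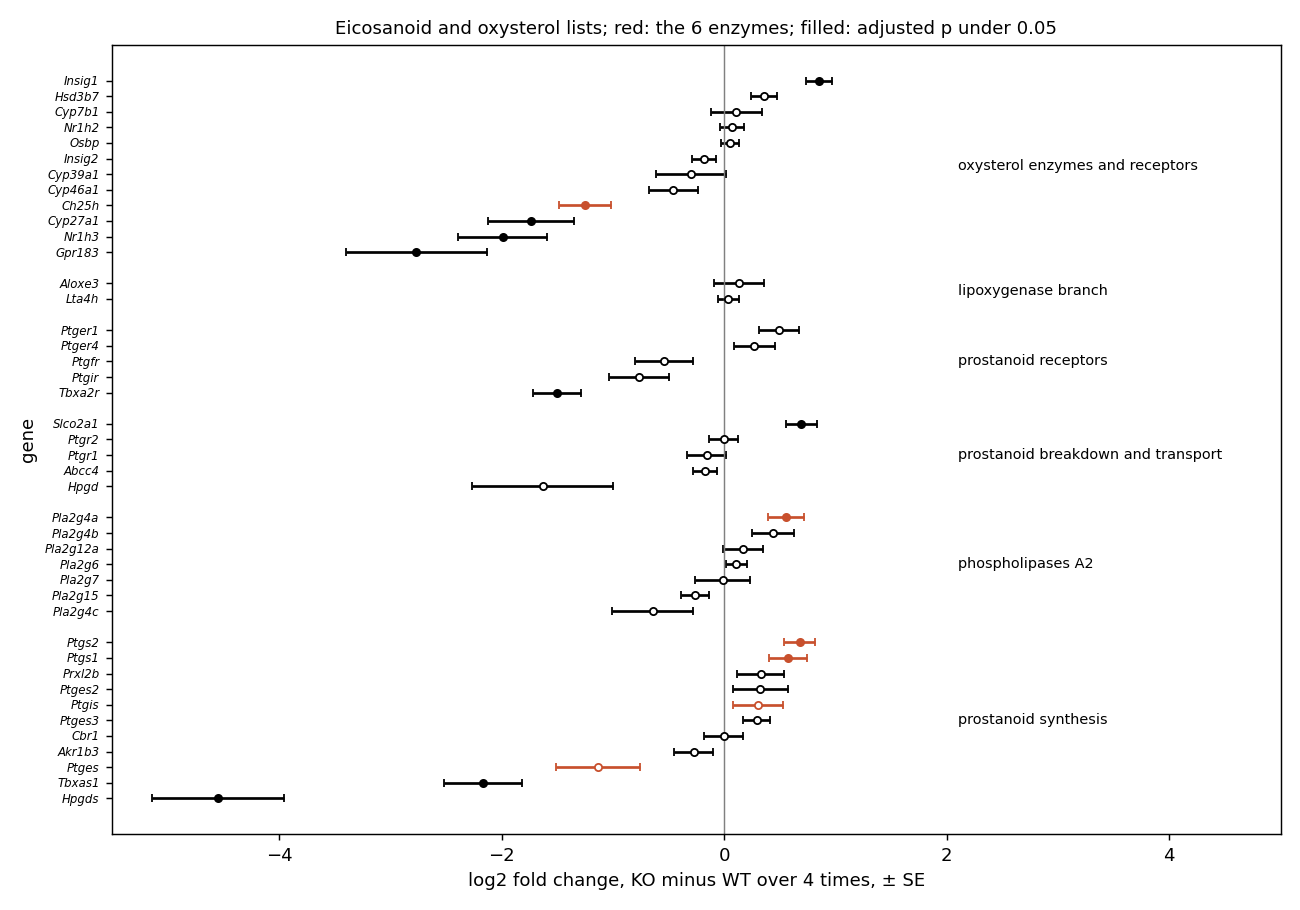
Log2 fold change of KO minus WT over 4 times with its SE (horizontal axis) for the tested genes of 6 pathway lists (vertical axis); red marks the 6 enzymes and filled points an adjusted p under 0.05. Hpgds lies farthest to the left and Insig1 farthest to the right, with Ptgs2, Slco2a1 and Ptgs1 also right of 0.

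The genes whose log2 CPM ran most alike were sought by Pearson correlation over the 8 libraries, as a description among 9156 or 9157 named genes that share depth and library. For Ptges the closest were Ifngr1, a subunit of the interferon gamma receptor (r = 0.995; 165, 152, 495 and 452 counts in WT, 222, 122, 156 and 145 in KO), Zfp275 (0.988) and Stx11 (0.983). Stx11, a syntaxin, showed 37, 49, 772 and 626 counts for WT against 16 to 47 for KO. These 3 were thus high in the same pair of libraries as Ptges, WT at 45 and 60 min. For Ch25h they were Anapc10 (0.971), Stard5 (0.952) and Tnfrsf11a, the receptor RANK (0.95; 77 to 128 counts in WT, 19 to 37 in KO). For Pla2g4a, B3galt6 (0.967) and Rangap1 (0.966) were among the closest. The closest to Ptgs1 were Pear1 (0.973), Nectin3 (0.955) and Cnnm2 (0.955), to Ptgs2 Rnf40 (0.965), Map2k7 (0.951) and Sat1 (0.949), and to Ptgis Rps26 (0.904), Gtf2a2 (0.891) and Commd3 (0.88). The likeness is of shape and not of size, since Rnf40 ran only from 663 to 919 counts.

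Rows within 100 kb of a gene were read for a shared step. Of the 8 rows near Ptges with at least 20 counts, Asb6 had the lowest adjusted p in the WT late response (0.66 ± 0.20, adjusted p = 0.0833), and the nearest, Prrx2, had 151, 157, 91 and 135 counts in WT. Fnbp1, 96343 bases from Ptges, was lower in KO (-0.41 ± 0.08, adjusted p = 0.00519). B4galt5, 57840 bases from Ptgis, rose in the WT late response (162, 135, 249 and 343 counts; 0.98 ± 0.26, adjusted p = 0.0491), while Ptgis did not.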

How the data were processed

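Stranded libraries of chromatin-associated RNA, depleted of ribosomal RNA, were read as 50 bp single ends, per the labels' protocols. The submitters' processing notes name cutadapt 1.12, STAR, featureCounts 1.5.0, DESeq2 and the build mm10; for the annotation release, strand setting and treatment of multiply mapped reads, these sources give nothing. Each gene row of the deposited table holds a whole-number count for every library and a length, per the file headers. When the listed exon segments were merged, their length equalled the given one in 100% of rows. Identifiers gave a symbol to 98.77% of rows; Prxl2b was matched as Fam213b, and Ptgr3 was not matched.

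Rows that reached 10 counts in 2 or more libraries were tested with edgeR 4.0.16 (limma 3.58.1, R 4.3.3) after TMM scaling (factors 0.818 to 1.21), with 2 residual degrees of freedom for the late responses and 3 for genotype. The SE is the log2 fold change over the square root of F. The code was tested on simulated data. No pair of libraries was a duplicate (chi-square per degree of freedom 8.43 to 56.5). A count of 0 allows up to 3 counts, or 0.192 to 0.243 CPM of the total; PCR copies are not separate molecules, so such limits describe counting error alone. Nothing says that libraries came from separate cultures. Promoters are RefSeq's (GRCm38.p6), found for 5 of the 6 genes; Ptgis is named only.

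The 6 genes and all lists were chosen with earlier results of these data known. Named genes are the 6, list genes called in at least 1 comparison, rows within 100 kb with at least 20 counts, the 3 most alike genes (1 of these is not reported here) and 3 reference genes; the other list genes were named after their values were seen. Alternatives were DESeq2 1.42.0, limma-voom, other scalings, filters, baselines and times, omission of each library, robust empirical Bayes and no time block. Plots used matplotlib 3.10.9.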

Additional observations from a re-analysis of the deposited data

Results flagged for a closer look

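Ptges was singled out because both late WT libraries were above the WT 0 min library while both late KO libraries were below the KO 0 min library. The WT minus KO difference of 2.42 ± 0.50 (SE) had an edgeR adjusted p of 0.0623. Ptgis was singled out for the same opposite directions, with a difference of 0.852 ± 0.51 and an adjusted p of 0.802. For Ptges, the KO 45 and 60 min ratios to 0 min had log2 intervals of -0.747 to 0.676 and -1.42 to 0.172. For Ptgis, the WT ratios had intervals of -0.651 to 0.776 and -0.3 to 1.05, and KO 45 min had -0.951 to 0.188. All these include equality, so such directions lie within counting error. The KO values of both rest on the KO 0 min library, whose cartilage and epithelial markers stood apart. Against 15 min, the differences were 1.78 for Ptges and 0.18 for Ptgis.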

How the results depend on the processing

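The rise of Ptges in WT kept its call under the 15 alternatives with both late WT libraries (1.91 to 2.13). Leaving out WT 15 min, KO 0 min or KO 15 min could hardly change that value (2.12 each), as none enters this response or the gene's own spread. The lower Ch25h in KO kept its call under all 19 (-1.59 to -0.95). The higher Ptgs2 in KO kept its call under 18 of 19, the exception being no time block. Pla2g4a lost its genotype call under 11 of 19 alternatives (0.19 to 0.88) and Ptgs1 under 13 (0.27 to 0.92); Ptges gained one under 6. These genotype tallies hold each omitted time as a WT and a KO entry, which are nearly the same check. With 1 library per group, 19 to 120 counts of Ptges and 13 to 76 of Ch25h limit precision. The genotype comparison pairs WT and KO libraries by time, and its values without that block are given here; with 1 library per group, no replicate number adds a further pairing. The causes of the changes below were not tested.

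Of the 6 genes, 1 was called in the WT late response, 0 in KO, 0 in the difference and 4 between genotypes. Leaving out 1 library gave 2 to 5 between genotypes. Without a late library, a late response takes the gene's own spread from the remaining late pair alone. Such counts for the late responses do not show stability and are left out. Total counts gave 1 in the difference; 0 and 15 min together as baseline gave 1 in KO and 1 in the difference; the genotype count was 2 at a minimum of 50 counts, 1 without the time block and 2 at 0 and 15 min only. Over all genes, the WT count of 825 became 426 with DESeq2, 278 with no filter and 1669 with 0 and 15 min as baseline. The KO count of 276 became 155, 17 and 1144, and 124 with 15 min as baseline; leaving out 1 library gave 169 to 782. The difference count of 75 became 14 with no filter, 198 with 0 and 15 min and 19 with 15 min as baseline, and 49 to 160 without 1 library. The genotype count of 2446 became 1535 with DESeq2 and 1068 without the time block, and 1155 to 2421 without 1 library.

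Signs turned in these cases, none of them past the threshold. With 0 and 15 min as baseline, the late response was -0.18 for Ptgs2 and 0.0305 for Pla2g4a in WT and -0.0114 for Ptgs1 in KO. With 15 min as baseline it was -0.74 for Ptgs2, 0.23 for Pla2g4a and -0.14 for Ch25h in WT, and -0.0517 for Ptgs1 and 0.29 for Ptges in KO. Total counts gave -0.16 for Ptgs1 in KO. Ptges between genotypes was 0.10 at 0 and 15 min only. Leaving out 1 library gave -0.351 to 0.0165 for Pla2g4a in WT, -0.197 to 0.215 for Ptgs1, -0.411 to 0.283 for Ptgs2 and -0.823 to 0.459 for Ch25h in KO, and -0.217 to 1.06 for Ch25h in the difference, the turned values coming without the WT 60 min library for Pla2g4a and without the KO 60 min library for the rest.

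Total counts shifted the median of all genes by -0.22 in the WT response, -0.21 in KO and -0.17 between genotypes. Higher genes made up a share of calls that moved from 76.1% to 52.1% in WT, from 71.7% to 26.9% in KO and from 41.9% to 14.1% between genotypes; it was 89% in WT and 89.7% in KO with DESeq2. Under total counts Ptgs1 and Pla2g4a lost their genotype calls and kept their sign.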
